A study of Homo sapiens with 6 samples.

Results

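Crypt stem cell markers are genes whose transcripts mark the stem cells at the base of the intestinal crypt. Of 22496 gene symbols in the deposited lists, 10 such markers were taken by exact symbol: LGR5, ASCL2, SMOC2, OLFM4, PROM1, CD44, SOX9, LRIG1, BMI1 and MSI1. They were measured as poly-A RNA in LoVo, an established human colon adenocarcinoma cell line. Of the 6 libraries, 3 carry the label non-target and serve as the control genotype, and 3 carry the label SHARPIN knockout. SHARPIN is a subunit of the ligase complex that builds linear ubiquitin chains, and the series asks what its loss does to gene expression in these cells. All 6 libraries share the LoVo background, and the labels name no drug or other treatment. Neither the way the knockout was made nor its origin, 1 clone or a pool, is stated in those labels.

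In the normal crypt, Wnt ligands and R-spondins from the surrounding tissue keep stem cells dividing. R-spondins bind LGR receptors, which protects Wnt receptors from removal, and beta-catenin with TCF/LEF factors then switches on targets such as LGR5, ASCL2 and CD44. Most colon cancers carry a defect in the destruction complex for beta-catenin, so many crypt base genes stay on without outside Wnt. The 10 markers have unlike roles. They include receptors and surface proteins, secreted proteins, transcription factors, an RNA-binding protein and a chromatin protein, and some are also made outside the stem cell compartment.

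The deposited unit is FPKM, which scales fragments by transcript length and by library size, so levels can be set side by side across genes within a library. Between 21100000 and 22500000 fragments were estimated to stand behind each library. Values given for replicates 1 to 3 follow that order. The sum of FPKM was 416852 to 431264 in 5 libraries and 522919 in knockout replicate 3. Levels therefore compare less directly between knockout replicate 3 and the other libraries. The SHARPIN transcript itself was at 11.9, 13.9 and 12.9 FPKM across non-target replicates 1 to 3, and at 7.55, 11.9 and 18.0 FPKM across knockout replicates 1 to 3. The groups overlapped (limma, adjusted p = 0.827), and a transcript level does not check a knockout made by a small edit. All 10 colon epithelial markers examined, EPCAM, KRT8 and CDX2 among them, reached 1 FPKM in at least 1 library (summed level 4101 to 5250 FPKM in non-target and 4827 to 9660 FPKM in knockout). The groups overlapped in 5 of them, and CDX1 (1.23 to 1.64 FPKM in non-target, 0.053 to 0.104 in knockout), CDH17 (49.0 to 68.9 and 2.95 to 11.1), CEACAM5 (45.3 to 51.0 and 6.53 to 24.0) and VIL1 were lower in all 3 knockout libraries, while KRT19 (257 to 263 and 589 to 891) was higher. Of 8 fibroblast markers, 4 reached 1 FPKM somewhere, with a summed level of 7.78 to 20.2 FPKM in non-target and 0.234 to 0.812 FPKM in knockout. The type I collagen gene COL1A2 stood at 6.12 FPKM in non-target replicate 1 and 0.139 FPKM in knockout replicate 1, and was at 0 in the other 4 libraries. COL1A1 (6.60 FPKM), THY1 (1.27), DCN (0.467), COL3A1, PDGFRA and PDGFRB were also highest in non-target replicate 1. Lumican (LUM) stood at 5.03 to 7.52 FPKM in all 3 non-target libraries, with the lowest value in replicate 1, and at 0.151 to 0.385 FPKM in knockout. Of 7 leukocyte markers, LYZ and CD68, which epithelial cancer cells can also express, reached 1 FPKM, and CD3E was at 0 throughout. LYZ stood at 45.6 to 66.3 FPKM in non-target and 1.34 to 3.29 FPKM in knockout, and CD68 went the other way, at 19.0 to 25.0 and 29.6 to 35.0 FPKM (summed level of the 7 markers 64.7 to 91.4 and 31.0 to 38.4 FPKM). None of 5 endothelial markers reached 1 FPKM in any of the 6 libraries (summed level up to 0.679 FPKM in non-target and 0.106 FPKM in knockout), and KDR was at 0. The part of these other cell markers in the results was not tested. Separate cultures are not named for the replicates, and p-values therefore cover only the spread among these libraries, which may be technical.

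The crypt stem cell markers did not move together. CD44, MSI1, ASCL2 and SOX9 rose in the knockout libraries, LGR5, PROM1 and LRIG1 fell, BMI1 did not pass the test, and SMOC2 and OLFM4 were at or near 0 in every library. Genes were tested with limma on log2(FPKM + 1) where 3 or more of the 6 libraries held at least 1 FPKM, which was so for 8 of the 10 markers. The call was an adjusted p below 0.05 (Benjamini-Hochberg over 13092 genes). Of all genes tested, 12.2% were called, 6.26% as higher and 5.93% as lower in knockout, against 4 and 3 of the 8 tested markers. In all 8 tested markers the groups were free of overlap, 5 being higher and 3 lower in knockout, where 32.1% of all genes tested did not overlap. PROM1 and LRIG1 reached 1 FPKM in only 1 knockout library, and ASCL2 in only 2 non-target libraries, so for them the filter itself was met mainly through the higher group. The median log2 fold change of the 8 was 0.57, and their median size without sign was 0.99, against 0.02 and 0.25 over all genes tested. The markers were chosen with earlier results of these data known, so these comparisons describe the markers and are no test of the list. With non-target replicates 2 and 3 counted as 1 sample, as a check on their likeness, LRIG1, SOX9 and ASCL2 lost their calls (limma, adjusted p = 0.145, 0.114 and 0.0803). In bulk RNA, fewer cells of a type and less RNA per cell cannot be told apart.

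**Figure D1:**
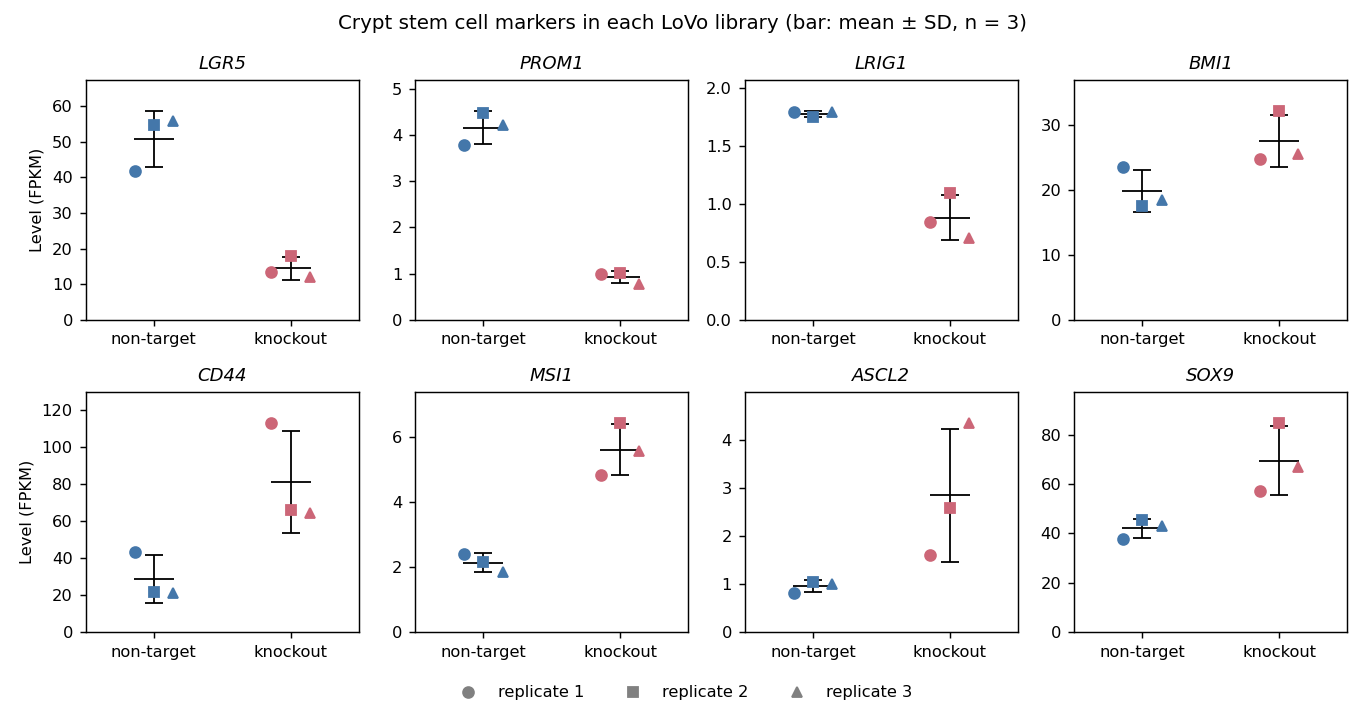
Level in FPKM (vertical axes, each from 0) of the 8 tested markers in the 3 non-target (blue) and 3 knockout (red) libraries; the symbol shape gives the replicate number, and the black bar with whiskers is the mean ± SD (n = 3). LGR5, PROM1 and LRIG1 lie lower in all 3 knockout libraries, and the other 5 markers lie higher, with no overlap between groups.

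LGR5 is the R-spondin receptor by which crypt stem cells were first traced, and a direct Wnt target. LGR5 spans chromosome 12 at 71833578 to 71980090 (GRCh37, plus strand). It stood at 41.7, 54.6 and 55.8 FPKM across non-target replicates 1 to 3, and at 13.4, 18.0 and 11.9 FPKM across knockout replicates 1 to 3. The highest knockout library was thus well below the lowest non-target library, and the non-target mean was 3.51 times the knockout mean. LGR5 fell by 1.75 on the log2(FPKM + 1) scale (SE 0.20, limma, adjusted p = 0.000477). Among the 13092 genes tested, 146 had a lower log2 fold change. In non-target libraries LGR5 stood above 90.3% to 92.6% of the genes at 1 FPKM or more, and in knockout above 60.1% to 72.9%.

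The annotated span of LGR5 shares 2101 bases with that of TSPAN8, a tetraspanin gene on the opposite strand, but the annotated exons share 0 bases. TSPAN8 went from 488 to 514 FPKM in non-target to 68.6 to 123 FPKM in knockout (log2 fold change -2.44, limma, adjusted p = 0.000133). Both neighbours therefore fell. The sources do not state if the counting used strand, and how far fragments of 1 gene entered the value of the other was not tested.

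Of 21 close relatives of the markers, 12 were tested. Among them 1 rose (OLFM2), 2 fell (LGR6 and LRIG3) and 9 did not pass, where 12.2% of all genes tested were called. Their median log2 fold change was 0.02. With a replicate block 4 fell, LGR4 and MSI2 being the others. In the blocked fit 86.4% of genes take their spread wholly from other genes. For those genes a blocked p, here and below, does not measure how far the gene's own pairs differ. The other LGR receptors also bind R-spondins. LGR6, the closest relative along with LGR4, had 4.73, 10.8 and 11.3 FPKM across non-target replicates 1 to 3, and 1.78, 2.85 and 2.81 FPKM across knockout replicates 1 to 3. LGR6 fell by 1.45 on the log2 scale (limma, adjusted p = 0.0114, but 0.0517 without knockout replicate 2). LGR4, the widely expressed member, behaved unevenly among the knockout libraries. It held 15.7, 14.3 and 14.0 FPKM across non-target replicates 1 to 3, and 15.3, 5.89 and 3.36 FPKM across knockout replicates 1 to 3. Knockout replicate 1 thus sat within the non-target range, and LGR4 did not pass (log2 fold change -0.99 ± 0.39 SE, limma, adjusted p = 0.148, and 1.15e-06 with a replicate block). The ligand genes RSPO1, RSPO2, RSPO3 and RSPO4 were below 0.05 FPKM in all 6 libraries, so the cells made little R-spondin transcript of their own in either genotype.

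**Figure D2:**
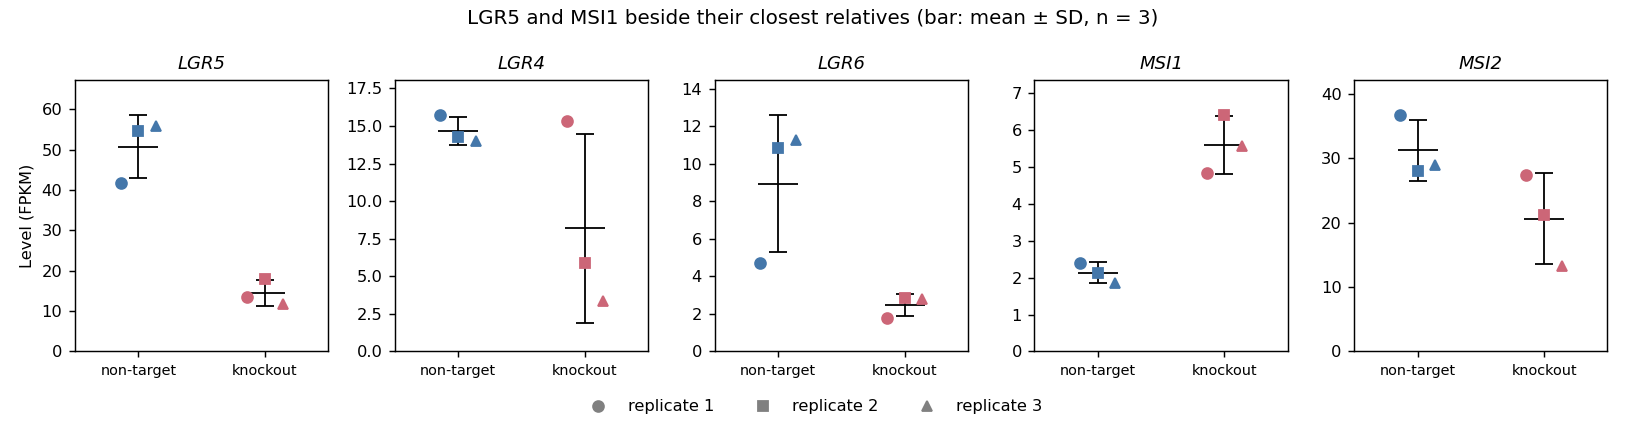
Level in FPKM (vertical axes, each from 0) of LGR5, LGR4, LGR6, MSI1 and MSI2 by library, with non-target in blue, knockout in red, replicate numbers as symbol shapes and the mean ± SD (n = 3) in black. LGR5 and LGR6 separate the groups, LGR4 in knockout replicate 1 (15.3 FPKM) lies among the non-target libraries, and MSI1 and MSI2 differ in opposite directions.

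PROM1 encodes prominin-1 (CD133), a protein of membrane protrusions that is widely used to sort stem-like cells from colon tumours. It lies on chromosome 4 at 15964699 to 16086001 (minus strand). Its level was 3.77, 4.48 and 4.22 FPKM across non-target replicates 1 to 3, and 0.984, 1.02 and 0.771 FPKM across knockout replicates 1 to 3. The highest knockout library, replicate 2, was thus below the lowest non-target library, replicate 1. PROM1 fell by 1.42 on the log2 scale (SE 0.16, limma, adjusted p = 0.000429), and the non-target mean was 4.50 times the knockout mean, the widest ratio of any marker above 0 in both groups. Its relative PROM2 was below 0.1 FPKM in all 6 libraries.

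LRIG1 is a transmembrane protein that restrains ERBB receptors and marks a crypt population that divides less often. LRIG1 lies on chromosome 3 at 66429221 to 66551687 (minus strand). It stood at 1.79, 1.75 and 1.79 FPKM across non-target replicates 1 to 3, the tightest group of any tested marker, with an SD of 0.0252 FPKM. In knockout replicates 1, 2 and 3 it stood at 0.845, 1.09 and 0.708 FPKM. LRIG1 fell by 0.57 on the log2 scale (SE 0.15, limma, adjusted p = 0.0363), a call that was lost when any library except knockout replicate 1 or 2 was left out (adjusted p up to 0.161). Scaling each library to TPM, or quantile normalization, also ended the call (limma, adjusted p = 0.0552 and 0.0647). SLC25A26, a mitochondrial carrier gene on the other strand, shares 2669 of the 7043 annotated exon bases of LRIG1, and stood at 5.37 to 6.68 FPKM in non-target and 7.44 to 11.2 FPKM in knockout. Of the relatives, LRIG3 went from 4.80 ± 0.651 to 2.65 ± 0.423 FPKM (SD, n = 3; limma, adjusted p = 0.0395). LRIG3 kept the call only when knockout replicate 1 was the library left out (otherwise up to 0.174). LRIG2 stood at 3.05 to 3.51 and 1.88 to 4.38 FPKM, with overlapping groups.

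CD44, the receptor for hyaluronan, is a Wnt target. CD44 lies on chromosome 11 at 35160429 to 35253949 (plus strand). Its level was 43.5, 21.5 and 21.3 FPKM across non-target replicates 1 to 3, and 113, 66.3 and 64.2 FPKM across knockout replicates 1 to 3. In both genotypes replicate 1 was the highest, at 2.03 times the mean of replicates 2 and 3 in non-target and 1.73 times in knockout. CD44 rose by 1.49 on the log2 scale (SE 0.31, limma, adjusted p = 0.0119). The same-numbered pairs differed by 1.36, 1.58 and 1.55 for replicates 1, 2 and 3. Without both replicate 1 libraries the log2 fold change was 1.56 (adjusted p = 0.00117). Leaving out knockout replicate 2 brought the adjusted p to 0.0499. FPKM per gene do not show which splice forms of CD44 were made.

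Genes that act on hyaluronan or on CD44 were measured beside it. Of 18 listed, 15 were tested, of which 2 rose, 2 fell and 11 did not pass, where 12.2% of all genes tested were called. Their median log2 fold change was -0.05. Both genes that fell, HYAL1 and MMP7, were below 1 FPKM in every knockout library. They met the filter only through the non-target group, so the count that fell depends in part on that filter. HYAL2, a cell surface hyaluronidase, went from 9.51 ± 0.902 to 23.8 ± 5.40 FPKM (SD, n = 3), and rose by 1.22 on the log2 scale (limma, adjusted p = 0.00263). HYAL1, the lysosomal hyaluronidase, went the other way, from 2.13 ± 0.131 to 0.514 ± 0.262 FPKM, and fell by 1.06 (limma, adjusted p = 0.00263). EZR encodes ezrin, which links the tail of CD44 to actin, and went from 172 ± 12.6 to 284 ± 63.9 FPKM (limma, adjusted p = 0.0438), but lost the call without any single library (up to 0.185). MMP7, a secreted protease and Wnt target, stood at 2.76 to 3.75 FPKM in non-target and 0.083 to 0.362 FPKM in knockout (log2 fold change -1.84, limma, adjusted p = 0.000138). The synthase genes HAS2 and HAS3 and the splicing factors ESRP1 and ESRP2 did not pass. A replicate block gave 4 that fell, with ESRP1 (9.83, 6.61 and 6.68 FPKM in non-target, 6.44, 3.80 and 2.85 in knockout) at an adjusted p of 0.00133 and the receptor kinase MET at 0.00120.

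ASCL2 is the basic helix-loop-helix factor that, with beta-catenin, sets the stem cell programme of the crypt base. The gene lies on chromosome 11 at 2289728 to 2291818 (minus strand). Its level was 0.812, 1.05 and 1.01 FPKM across non-target replicates 1 to 3, and 1.60, 2.59 and 4.34 FPKM across knockout replicates 1 to 3. The knockout libraries were all higher but spread widely, with a coefficient of variation of 48.8%, the largest of the 8 markers in knockout. ASCL2 rose by 0.91 on the log2 scale (SE 0.25, limma, adjusted p = 0.0400). The call was lost when any library except knockout replicate 1 was left out (up to 0.122). ASCL2 and LGR5, which often mark the same crypt cells, thus differed in opposite directions. The relatives ASCL3 and ASCL5 were too low to test, at up to 0.366 FPKM, and ASCL4 was not listed in any library.

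SOX9 is a high-mobility-group transcription factor of crypt base and Paneth cells and a target of Wnt signalling. Its locus is on chromosome 17 at 70117161 to 70122557 (plus strand). It stood at 37.8, 45.3 and 43.2 FPKM across non-target replicates 1 to 3, and at 57.1, 84.6 and 66.9 FPKM across knockout replicates 1 to 3. SOX9 rose by 0.70 on the log2 scale (SE 0.19, limma, adjusted p = 0.0390). It lost the call when any library except knockout replicate 1 was left out (up to 0.129), and when each library was scaled to TPM (0.0902) or quantile normalized (0.102). Its direction was the same in all 17 other settings. SOX8 and SOX10, its closest relatives, were at 0.031 FPKM or less.

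MSI1 encodes Musashi-1, an RNA-binding protein of neural and intestinal stem cells. The gene lies on chromosome 12 at 120779133 to 120806967 (minus strand). It stood at 2.41, 2.14 and 1.86 FPKM across non-target replicates 1 to 3, and at 4.83, 6.41 and 5.56 FPKM across knockout replicates 1 to 3. The lowest knockout library held more MSI1 than the highest non-target library, and MSI1 rose by 1.07 on the log2 scale (SE 0.18, limma, adjusted p = 0.00340). MSI2, the more abundant relative that is also active in intestinal stem cells, stood at 36.7, 28.0 and 29.0 FPKM in non-target and at 27.4, 21.2 and 13.3 FPKM in knockout. The groups did not overlap, but MSI2 did not pass without a block (log2 fold change -0.62 ± 0.25 SE, limma, adjusted p = 0.151, and 0.00210 with a replicate block). The ratio of MSI2 to MSI1 in FPKM was 13.1 to 15.6 in non-target libraries and 2.40 to 5.68 in knockout libraries.

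**Figure D3:**
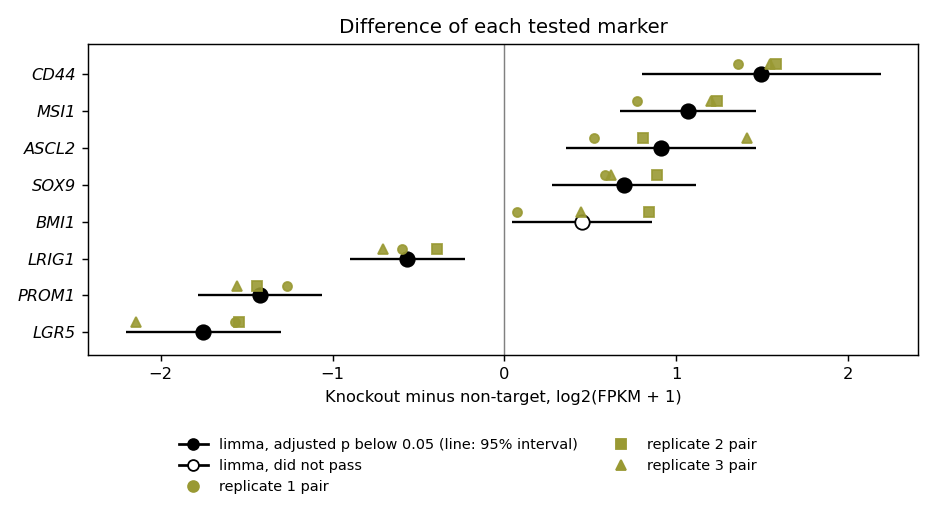
Knockout minus non-target difference of log2(FPKM + 1) (horizontal axis) for the 8 tested markers: black circles are limma estimates with 95% intervals, filled where the adjusted p was below 0.05, and the olive symbols are the differences within each same-numbered pair. All 3 pairs of each marker lie on 1 side of 0, and the BMI1 pair of replicate 1 lies nearest to it, at 0.07.

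BMI1 is a ring finger protein of Polycomb repressive complex 1 and marks a reserve population above the crypt base in the mouse. Its locus is on chromosome 10 at 22610028 to 22620413 (plus strand). It stood at 23.5, 17.5 and 18.5 FPKM across non-target replicates 1 to 3, and at 24.8, 32.1 and 25.5 FPKM across knockout replicates 1 to 3. The groups did not overlap, yet non-target replicate 1 and knockout replicate 1 were only 0.07 apart on the log2 scale, and BMI1 did not pass (log2 fold change 0.45, 95% interval 0.04 to 0.86, limma, adjusted p = 0.152). With a replicate block the adjusted p was 0.0364, and without both replicate 1 libraries it was 0.0396. COMMD3-BMI1, a read-through transcript of the same strand that shares 1000 exon bases with BMI1, was listed at 18.3 to 25.0 FPKM in non-target and 26.0 to 34.0 FPKM in knockout. The ratio of the read-through to BMI1 was 1.05 to 1.13 in all 6 libraries, so the 2 entries carried nearly the same value, and whether they hold the same fragments was not tested. COMMD3, the upstream gene, stood at 14.5 to 18.0 FPKM in non-target and 24.2 to 32.5 FPKM in knockout (limma, adjusted p = 0.0192, and up to 0.115 without non-target replicate 2 or 3 or knockout replicate 2).

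Of 16 Polycomb genes and targets, all tested, 0 rose, 1 fell and 15 did not pass, where 12.2% of all genes tested were called. Their median log2 fold change was -0.10. With a replicate block EZH1, a catalytic subunit of PRC2, passed as higher (adjusted p = 0.0452). The gene that fell without the block was CDKN2A, the cell cycle inhibitor locus that BMI1 is known to repress. CDKN2A stood at 19.4, 19.1 and 19.0 FPKM in non-target and at 6.29, 3.27 and 4.28 FPKM in knockout (log2 fold change -1.88, limma, adjusted p = 0.000401). Its neighbour CDKN2B stood at 6.06 to 6.48 and 4.69 to 7.71 FPKM, with overlapping groups. Of the BMI1 relatives, PCGF1, PCGF2, PCGF3, PCGF5 and PCGF6 were between 4.48 and 17.0 FPKM in all libraries and did not pass (adjusted p from 0.383 to 0.889).

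SMOC2 and OLFM4, the secreted proteins of the list, were near or at 0 and could not be tested. OLFM4, olfactomedin-4, is among the most abundant stem cell transcripts of the human small intestine. It was listed in 1 library only, non-target replicate 2, at 0.049 FPKM. SMOC2, a matricellular calcium-binding protein, was listed at 0.015 FPKM in non-target replicate 2, at 0.007 FPKM in non-target replicate 3, and in no other library. Relatives of both were also examined. SMOC1 was at 0.012 FPKM or less, and OLFM3 was not listed. OLFM2, a secreted olfactomedin, went from 4.42 ± 2.65 to 12.0 ± 3.41 FPKM (SD, n = 3; log2 fold change 1.34, limma, adjusted p = 0.0231), a call kept without non-target replicate 1 but lost without each of the other 5 libraries (up to 0.0803). OLFM1 stood at 0.990 to 1.55 FPKM across both groups.

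Windows of 250 bases before the transcription start were taken from RefSeq (GRCh38.p14) for the 6 markers with an entry: SMOC2, OLFM4, PROM1, CD44, LRIG1 and BMI1. LGR5, ASCL2, SOX9 and MSI1 were not among them. The 6 have 13 annotated starts, and each window had 1 exact match on GRCh37, from which the positions below come. On both strands the windows were searched for a TCF/LEF core (CTTTGA), an E-box of the ASCL type (CAGCTG), a GC box (GGGCGG) and a TATA box (TATAAA). These stood in 11.2%, 14.0%, 42.6% and 10.7% of 35114 windows of that length before all RefSeq starts. A pair of windows is shown to set a marker at 0 in 5 of 6 libraries (OLFM4) beside one above 17 FPKM in all 6 (BMI1). A further one is shown because it holds the only TCF/LEF core among the 13. Capitals mark the searched motifs.

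OLFM4, chr13:53602698-53602947, plus strand: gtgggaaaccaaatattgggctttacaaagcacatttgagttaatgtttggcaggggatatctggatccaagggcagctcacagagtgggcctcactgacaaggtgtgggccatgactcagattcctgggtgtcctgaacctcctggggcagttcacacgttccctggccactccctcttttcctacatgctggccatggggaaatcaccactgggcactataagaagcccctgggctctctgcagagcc
BMI1, chr10:22609778-22610027, plus strand: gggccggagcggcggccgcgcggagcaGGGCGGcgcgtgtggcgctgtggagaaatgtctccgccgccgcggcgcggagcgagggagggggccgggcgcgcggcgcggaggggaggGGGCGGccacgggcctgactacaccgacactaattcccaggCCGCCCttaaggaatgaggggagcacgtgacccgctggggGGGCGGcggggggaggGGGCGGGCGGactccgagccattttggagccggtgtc
PROM1, most downstream start, chr4:16077742-16077991, minus strand: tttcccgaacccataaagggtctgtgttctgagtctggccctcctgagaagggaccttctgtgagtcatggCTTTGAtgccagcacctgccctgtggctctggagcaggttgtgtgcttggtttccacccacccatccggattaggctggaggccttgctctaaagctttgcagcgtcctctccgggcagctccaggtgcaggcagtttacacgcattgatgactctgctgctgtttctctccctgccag

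The OLFM4 window held 1 CpG and none of the 4 motifs, and 6.1% of all windows held fewer CpG. The BMI1 window, before the more upstream of its 2 starts, held 35 CpG and 6 GC boxes, 2 of which overlap, and 94.2% of all windows held fewer CpG. SMOC2, which was also near 0, has 24 CpG and 2 GC boxes in its window, so the near-silent markers were unlike in this respect. The PROM1 window, before a start inside the gene, held 1 TCF/LEF core at position -179, where -1 is the base before the start, and the other 3 PROM1 windows held none. CD44 has 2 GC boxes and 15 CpG in its window, and no TCF/LEF core or E-box. A match is a run of letters and does not show binding.

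The order of the markers by level differed between the genotypes. In non-target libraries LGR5 was first on average, at 50.7 ± 7.81 FPKM, followed by SOX9 (42.1 ± 3.86), CD44 (28.8 ± 12.7) and BMI1 (19.8 ± 3.25). The ranges of neighbours in this order overlapped. PROM1 (4.16 ± 0.359), MSI1 (2.14 ± 0.278), LRIG1 (1.77 ± 0.0252) and ASCL2 (0.956 ± 0.127) followed, with no overlap between neighbours. In knockout libraries CD44 came first on average at 81.2 ± 27.5 FPKM (SD, n = 3), with SOX9 overlapping it at 69.5 ± 13.9 and above it in replicates 2 and 3. BMI1 (27.5 ± 4.03), LGR5 (14.4 ± 3.20), MSI1 (5.60 ± 0.791) and ASCL2 (2.84 ± 1.39) came next without overlap, and PROM1 (0.924 ± 0.134) and LRIG1 (0.881 ± 0.194) overlapped each other. By mean level LGR5 thus stood at rank 1 in non-target and rank 4 in knockout. The ratio of CD44 to LGR5 was 1.04, 0.394 and 0.382 in non-target replicates 1, 2 and 3, and 8.41, 3.68 and 5.41 in knockout.

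**Figure D4:**
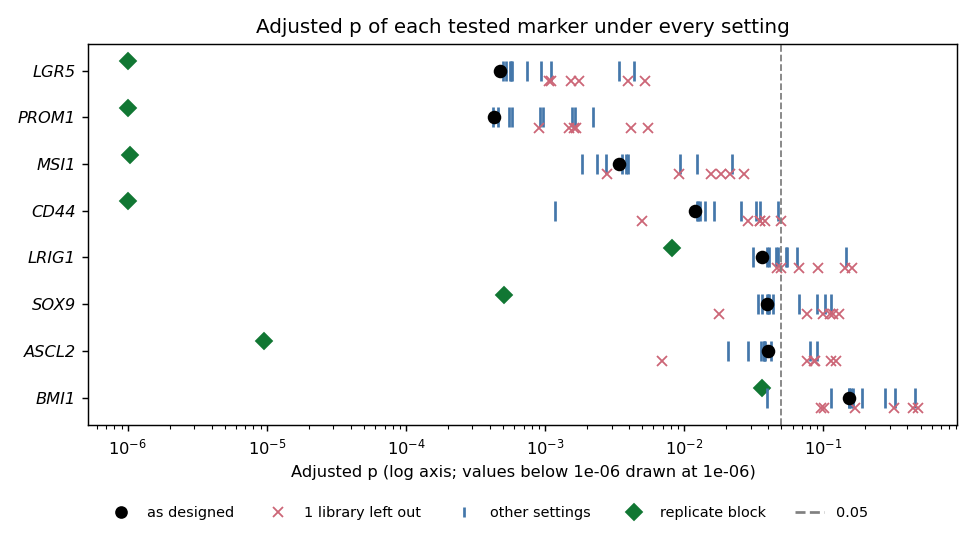
Adjusted p (horizontal log axis; values below 1e-06 are drawn there) of each tested marker as designed (black), with 1 library left out (red crosses), with a replicate block (green) and under the other settings (blue ticks); the dashed line is 0.05. LGR5, PROM1, MSI1 and CD44 stay below 0.05 in all, while LRIG1, SOX9, ASCL2 and BMI1 have values on both sides.

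Further genes of the crypt base were taken from a list of 30, of which 24 were tested. Among the 24, 5 rose, 3 fell and 16 did not pass, where 12.2% of all genes tested were called. Their median log2 fold change was -0.13. When 1 library was left out, 3 to 5 rose and 1 to 4 fell, the fewest without knockout replicate 2. With a replicate block 7 rose and 4 fell, the added ones being the Wnt target SP5 (0.868 to 1.18 FPKM in non-target, 1.42 to 2.75 in knockout, adjusted p = 0.00466), IGFBP4, a binding protein of insulin-like growth factors (6.12 ± 0.722 and 9.41 ± 1.51 FPKM, SD, n = 3, limma, adjusted p = 0.0207), and LGR4, which is also in the list of relatives. APCDD1, a Wnt inhibitor, went from 11.4 ± 9.47 to 68.1 ± 25.5 FPKM, and NKD1, an inhibitor of Dishevelled, from 1.64 ± 0.388 to 6.04 ± 0.888 FPKM (SD, n = 3; limma, adjusted p = 0.00373 and 0.00100). The feedback scaffold AXIN2, the standard Wnt readout, stood at 45.1, 43.7 and 43.5 FPKM in non-target and 77.3, 86.4 and 71.1 FPKM in knockout (log2 fold change 0.81, adjusted p = 0.00796, but up to 0.0575 without non-target replicate 2 or 3). AXIN2 therefore rose while LGR5, a target of the same pathway, fell. TNFRSF19 (Troy), a receptor of crypt base cells, rose by 1.85 on the log2 scale (limma, adjusted p = 0.0311), a call kept when non-target replicate 1 was left out and lost without each of the others (up to 0.149). TCF4, the helix-loop-helix factor E2-2 and not the Wnt effector TCF7L2, rose by 1.73 (limma, adjusted p = 0.00718, and 0.0535 without knockout replicate 2). ALDH1A1, a retinal dehydrogenase used to sort stem-like cells, fell by 3.65, PTPRO, a receptor phosphatase, by 1.01 and the factor ETS2 by 0.86 (limma, adjusted p = 2.43e-05, 0.0131 and 0.0148). PTPRO lost the call without knockout replicate 2 or 3, and ETS2 without non-target replicate 3 or knockout replicate 2 (up to 0.0755). In knockout PTPRO was below 1 FPKM in every library, and ALDH1A1 in all but replicate 1. PTPRO thus met the filter only, and ALDH1A1 mainly, through the non-target group. RNF43 and ZNRF3, the ligases from which R-spondins protect Wnt receptors, did not pass (14.4 to 22.9 against 15.5 to 21.1 FPKM, and 3.82 to 4.17 against 4.60 to 7.00 FPKM).

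Genes of a fetal-like or injured crypt state were set beside the stem cell markers, since LGR5 is known to be low in that state. Of 14 listed, 10 were tested, of which 7 rose, 2 fell and 1 did not pass. The median log2 fold change was 1.07. Over all genes tested, 6.26% rose and 5.93% fell, with a median of 0.02, but this list was chosen with earlier results known. S100A6 did not pass. This calcium-binding protein stood at 867 to 1152 FPKM in non-target and 1037 to 2338 FPKM in knockout (log2 fold change 0.54, limma, adjusted p = 0.267, and 0.0231 with a replicate block). Clusterin (CLU), which marks revival stem cells in the mouse, stood at 33.6, 15.5 and 15.2 FPKM in non-target and 157, 89.0 and 115 FPKM in knockout (log2 fold change 2.49, limma, adjusted p = 0.000807). EMP1, an epithelial membrane protein, and the annexin ANXA3 rose by 1.89 and 1.38 on the log2 scale (limma, adjusted p = 0.00396 and 0.000906). The matricellular protein CCN1 went from 9.11 ± 2.28 to 26.1 ± 10.7 FPKM (SD, n = 3; log2 fold change 1.37, limma, adjusted p = 0.00981). The members that fell were the alarmin IL33, from 7.21 ± 0.154 to 0.657 ± 0.432 FPKM, and mesothelin (MSLN), from 7.13 ± 0.437 to 0.631 ± 0.194 FPKM (limma, adjusted p = 0.000131 and 5.83e-05). In knockout MSLN was below 1 FPKM in every library, and IL33 in all but replicate 1. MSLN thus met the filter only, and IL33 mainly, through the non-target group. CLU, EMP1 and CCN1 were all highest in replicate 1 of both genotypes, as CD44 was.

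Of 20 genes of differentiated colon cells, only 6 were abundant enough to test, of which 1 rose, 4 fell and 1 did not pass. Their median log2 fold change was -0.88, and 12.2% of all genes tested were called. Of those that fell, CEACAM1 and VIL1 were below 1 FPKM in every knockout library. They met the filter only through the non-target group, so the count that fell and the median depend in part on that filter. CEACAM1, an adhesion protein of mature colonocytes, went from 5.75 ± 0.452 to 0.691 ± 0.0231 FPKM and the microvillus protein villin (VIL1) from 2.39 ± 0.395 to 0.510 ± 0.187 FPKM (SD, n = 3; limma, adjusted p = 7.68e-05 and 0.00142). The mucin MUC2 and the carbonic anhydrase CA2 fell by 1.06 and 0.71 on the log2 scale (limma, adjusted p = 0.0252 and 0.0251). Both calls ended when replicate 2 of either genotype or replicate 3 of the non-target group was left out, and that of MUC2 also without knockout replicate 3 (up to 0.166). The keratin KRT20 rose by 2.26 on the log2 scale (limma, adjusted p = 0.0168). Its call ended without replicate 2 of either genotype or replicate 3 of the non-target group (up to 0.109).

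Genes most like each called marker were taken by Pearson r of log2(FPKM + 1) over the 6 libraries, among tested genes with a mean of at least 5 FPKM. The libraries fall into 2 genotype groups, so these values describe a shared pattern and carry no p. For LGR5 they were the long non-coding RNA PURPL, NBN, the desmosomal cadherin DSG3 and RCHY1 (r from 0.994 to 0.995). DSG3 went from 12.4, 19.3 and 19.0 FPKM in non-target to 1.10, 1.36 and 0.537 FPKM in knockout, and was also among the 4 most like PROM1, with HFE, AHCYL2 and OXCT1 (0.997 to 0.998). For LRIG1 they were the cystine transporter SLC7A11, ZBED3, NBN and PURPL (0.995 to 0.998). For CD44 they were PABPC1, RGS9, KRT20 and ABHD4 (0.996 to 0.997), each of which was highest in replicate 1 of its genotype. For ASCL2 they were CEP131, NARF, SEMA4C and MAP7D1 (0.995 to 0.997), for SOX9 MAPKAP1, TBC1D14, BMP1 and FGFRL1 (0.991 to 0.996), and for MSI1 KLC1, PACS1, MTHFSD and SLC6A20 (0.993 to 0.998).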

How the data were processed

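Per the series' design text and the submitters' processing notes, trimmed reads went through TopHat2 2.1.1 against hg19 (UCSC genes), and STAR 2.7.10b gave the FPKM. The deposited FPKM came as 1 list of symbols per library. An unlisted symbol was counted as 0. Gene positions are from GENCODE on GRCh37, the same build. Depth was estimated from genes of 1 annotated transcript, as the step of FPKM times length on which low values gather. Within 2% of 1 or 2 steps lay 61 to 87 of the 301 to 379 low values in a library, so this is an estimate, and no count test was run.

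Genes were tested two-sided with limma 3.58.1 (R 4.3.3; trend and robust options on) on log2(FPKM + 1), a scale that understates changes of low genes. The fit was tested on simulated data with independent normal noise. Those data held no shared replicate effect and no near-alike libraries, so they do not check how the fit handles these. The markers, gene lists and tests were chosen with earlier results of these data known. All 10 markers are named. In other lists the members past the threshold that changed most, at most 6 and without overlap between groups, are named, and others where a count or a comparison turns on them. Relatives are named at 1 FPKM or more in at least 3 libraries. Further members of a list were named after their values were seen. Some members of these lists are not reported here by name.

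Same-numbered libraries deviated from their group means together (correlation across genes 0.547, 0.309 and 0.331 for replicates 1, 2 and 3). Crossed libraries did so as much, at 0.321 for non-target replicate 3 with knockout replicate 2, and 0.320 for the reverse. This sets replicate 1 apart, but does not show that replicates 2 and 3 are pairs by number. The main fit has no block, and a block by replicate number was run only as an alternative. Blocked values stand where they change a call. The blocked fit leaves 2 residual degrees of freedom, and 86.4% of genes take their spread wholly from other genes. Blocked p-values can therefore be far too small for a gene whose own pairs differ widely, as those of LGR4 do.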

Additional observations from a re-analysis of the deposited data

How the results depend on the processing

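LGR5, PROM1, CD44 and MSI1 kept direction and call under each of the 16 or 17 other settings run on them, with log2 fold changes of -1.91 to -1.63, -2.06 to -1.32, 1.23 to 1.82 and 0.98 to 1.35. LRIG1, SOX9 and ASCL2 kept direction but lost the call under 8, 9 and 7 settings, and BMI1, at 0.34 to 0.64, passed with a replicate block or without both replicate 1 libraries. The 4 markers that rose became 2 with no filter, with a mean of at least 5 FPKM (which 4 tested markers do not reach) or with non-target replicates 2 and 3 as 1 sample, and were 2 to 4 when 1 library was left out. The 3 that fell became 1 with a mean of at least 5 FPKM. Over all genes, 1597 calls became 865 with that filter (519 higher, 346 lower), 3309 with a replicate block (1767 and 1542) and 944 with the pair as 1 sample (416 higher). They were 911 to 1970 when 1 library was left out (411 to 1041 higher, 500 to 929 lower), and 1329 were higher without both replicate 1 libraries. SHARPIN had a log2 fold change of -0.12, and -0.41 to 0.17 when 1 library was left out (0.17 without knockout replicate 1) and 0.12 without both replicate 1 libraries. The cause was not tested. Depth is an estimate, so no counting error is given for low markers such as SMOC2 and OLFM4.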
